A study of Homo sapiens with 12 samples.

Results

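The NFAT transcription factors, the catalytic subunits of the phosphatase calcineurin and its inhibitors, the calcipressins, were followed in PC-3 cells that overexpressed the kinase PIM1, wild-type NFATC1 or a multi-mutant NFATC1. The members were NFATC1, NFATC2, NFATC3, NFATC4, NFAT5, PPP3CA, PPP3CB, PPP3CC, RCAN1 and RCAN3. Every non-control array probe whose RefSeq transcript belongs to 1 of these 10 genes was taken, which gave 14 of the 34127 probes on the arrays (10 of 20092 genes). All 14 passed the filter on dim probes, which kept 31674 probes.

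PC-3 is an established androgen-independent prostate adenocarcinoma cell line. All 12 samples came from stable lines, which were pools of G418-selected cells that also carried a plasmid for the red fluorescent protein Td-Tomato. The control group carried the empty vector and the PIM1 group carried a PIM1 expression vector. WT and MM cells were control-vector cells given a transient NFATC1 vector, wild-type in WT and multi-mutant in MM, both Flag-tagged and driven by a CMV promoter, and the PIM1 + WT and PIM1 + MM groups were PIM1 cells treated in the same way. The labels name no mock transfection for the control and PIM1 groups. The methods place RNA extraction on the day after transfection, while the results text of the study names a later time. Each of the 6 groups had 2 replicates, which the labels do not assign to separate cultures, so that p-values measured only the spread between these samples, which may be technical. In bulk RNA of this kind, fewer cells that express a gene and less of its RNA per cell cannot be told apart.

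RNA was hybridized to 6 two-colour arrays on 2 slides, 1 replicate of every group per slide. Control, WT and PIM1 + WT were always labelled with the green dye Cy3, and PIM1, MM and PIM1 + MM always with the red dye Cy5. Each array paired a Cy3 group with a Cy5 group (control with PIM1, WT with MM, PIM1 + WT with PIM1 + MM), and no dyes were swapped. In these 3 study comparisons, the dye and the group therefore cannot be told apart for any single probe. Stable PIM1 was also compared within a dye, as PIM1 + WT minus WT in Cy3 and PIM1 + MM minus MM in Cy5, and the mean of both is called the within-dye difference. Levels are log2 of the quantile-normalized median intensity, a difference of 1 is a doubling, and a probe was called at a limma adjusted p below 0.05 over all 31674 probes. Levels are compared between samples for 1 probe and never between probes. Per array channel, 56.9% to 69.0% of spots were well above background and no spot was saturated. The epithelial markers KRT8, KRT18, KRT19 and EPCAM were well above background in 12 of 12 samples, while KLK3, a marker of androgen-responsive luminal cells, was not well above background in any. The PIM1 probe differed by 0.25 between the PIM1 and control groups (adjusted p = 0.1066) and by -0.04 within a dye (adjusted p = 0.7511), so that neither comparison gave a call on the overexpressed gene. Across dyes the probe was lower in PIM1 + WT than in PIM1 + MM (-0.36, adjusted p = 0.0395). The paper reports quantitative PCR that showed PIM1 overexpression in the array samples, which was not re-analysed here.

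Calcineurin is a calcium- and calmodulin-dependent phosphatase made of a catalytic A subunit, encoded by PPP3CA, PPP3CB or PPP3CC, and a regulatory B subunit. After a rise in cytoplasmic calcium it removes phosphates from the regulatory domain of NFATC1 to NFATC4, which then enter the nucleus and bind DNA at sites with the core GGAAA. Kinases such as GSK3, DYRK, casein kinase 1 and protein kinase A oppose this step. NFAT5 lacks the calcineurin docking region and is known for the response to osmotic stress. RCAN1 and RCAN3 bind calcineurin and inhibit it, and RCAN1 is itself a known NFAT target gene, which closes a feedback loop.

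The multi-mutant form was built with primer pairs named for 10 serine or threonine residues of NFATC1, to be changed to alanine. The forward primers are shown because they are the designed difference between the WT and MM vectors. Across the 5 primer pairs 22 bases were changed. Each primer runs 5′ to 3′, and capitals mark the bases that differ between the original and the mutant primer, some of which make a restriction site. In the primer named for Ser151, Ser153 and Thr154 the marked bases fall in 4 triplets, counted from the first marked base, so that 1 triplet beyond the named residues was changed as well. They fall in 5 triplets in the primer named for Ser256 and Ser257 and in 4 in that named for Ser335, Thr338 and Thr339. The marked bases were not translated here, and the residues are given as the primers are named.
Ser245 original: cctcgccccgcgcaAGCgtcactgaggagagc
Ser245 mutant: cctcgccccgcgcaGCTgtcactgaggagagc
Ser269 original: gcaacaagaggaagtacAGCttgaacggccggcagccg
Ser269 mutant: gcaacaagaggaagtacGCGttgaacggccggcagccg
Ser151 + Ser153 + Thr154 original: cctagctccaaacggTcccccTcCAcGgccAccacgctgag
Ser151 + Ser153 + Thr154 mutant: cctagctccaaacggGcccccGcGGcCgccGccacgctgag
Ser256 + Ser257 original: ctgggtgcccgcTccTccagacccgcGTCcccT
Ser256 + Ser257 mutant: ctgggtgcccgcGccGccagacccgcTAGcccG
Ser335 + Thr338 + Thr339 original: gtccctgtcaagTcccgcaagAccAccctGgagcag
Ser335 + Thr338 + Thr339 mutant: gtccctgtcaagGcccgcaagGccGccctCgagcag

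NFATC1 was measured by probes A_24_P258846 and A_23_P300150, and they followed different variables. A_24_P258846 rose with transfection and was far higher after transfection of MM than of WT. A_23_P300150 was not called with transfection of either form and was lower in all 6 samples with stable PIM1. The place of both probes along the transcript was not analysed here, since no probe sequences were used.

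On A_24_P258846, the control samples were at 6.87 and 6.87 and the PIM1 samples at 6.58 and 6.18, the latter not well above background. The WT samples were at 7.72 and 7.82, and the PIM1 + WT samples at 7.94 and 8.01. The MM samples were at 11.37 and 11.22, and the PIM1 + MM samples at 11.98 and 11.92. The 4 samples with MM were thus more than 3 log2 units above every other sample, and the 4 samples with WT lay between these and the untransfected samples, with no overlap. WT exceeded the control by 0.90 ± 0.116 (SE) within Cy3 (adjusted p = 0.02793), a call that held in 12 of 24 alternative settings. MM in PIM1 cells exceeded PIM1 alone by at least 39.2-fold within Cy5, a bound because the PIM1 group was not well above background (adjusted p = 7.245e-08). WT was 11.5-fold lower than MM in control cells (log2 difference -3.52 ± 0.116, adjusted p = 4.841e-06) and 15.8-fold lower in PIM1 cells (-3.98, adjusted p = 1.578e-06). The difference between these contrasts was not called (interaction -0.46, adjusted p = 0.1932). WT and MM groups therefore differed in the signal of this probe as well as in the mutated residues. Dye and group coincide in this contrast, and whether the probe binds both forms alike was not analysed. The paper reports quantitative PCR of NFATC1 RNA in the array samples as a check of its overexpression, which was not re-analysed here. For PC-3 cells of its migration assays, the paper reports equivalent NFATC1 protein on Western blots. The part of the signal difference in any other difference between the groups was not tested.

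On A_23_P300150, the control samples were at 8.33 and 8.25, the WT samples at 8.25 and 8.30 and the MM samples at 8.39 and 8.40. The PIM1 samples were at 7.46 and 7.42, the PIM1 + WT samples at 7.20 and 7.17 and the PIM1 + MM samples at 7.31 and 7.37. Every sample with stable PIM1 was below every sample without it, in either dye and on both slides. The within-dye difference was -1.07 ± 0.0415 (2.10-fold lower, adjusted p = 3.631e-07), with -1.07 on slide 1 and -1.08 on slide 2. PIM1 minus control was -0.85 ± 0.0587 (adjusted p = 1.794e-05), and this kept its direction and its call under all 26 alternative settings, from -1.19 to -0.81. It was not called with either NFATC1 form, with a difference of -0.02 between WT and control (adjusted p = 0.9639) and of -0.10 between PIM1 + MM and PIM1 (adjusted p = 0.2991).

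**Figure D1:**
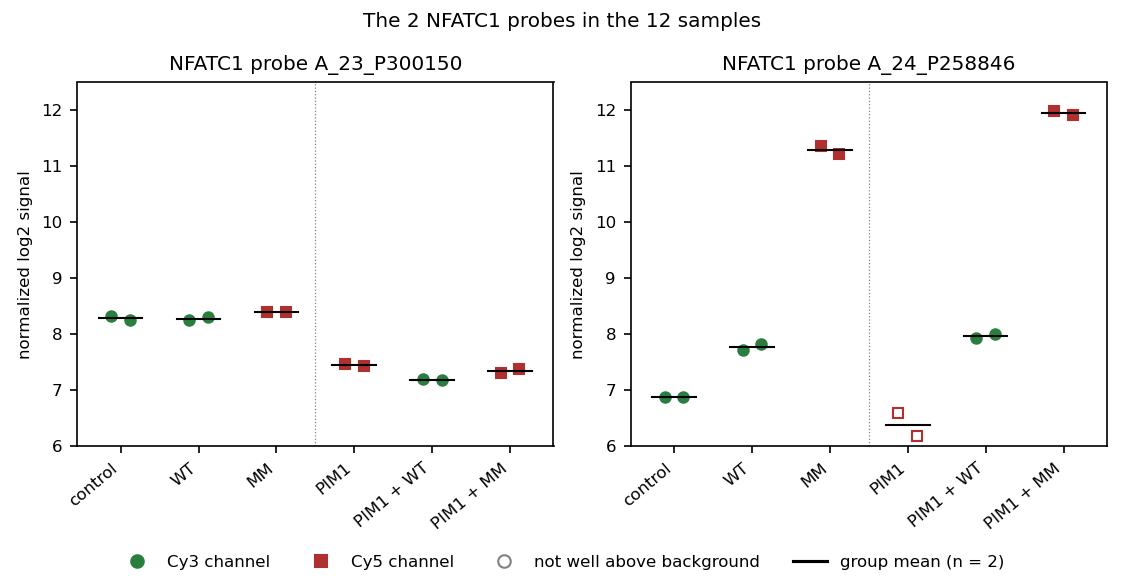
Normalized log2 intensity of both NFATC1 probes in each of the 12 samples, by group, with green circles for Cy3, red squares for Cy5, open symbols where a spot was not well above background and lines for group means (n = 2). A_24_P258846 is highest in the MM and PIM1 + MM samples (11.22 to 11.98), and A_23_P300150 is lower in the 6 samples with stable PIM1 (7.17 to 7.46) than in the 6 without (8.25 to 8.40).

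The genes whose levels over the 12 samples were most like A_23_P300150, among 1248 probes of other genes well above background in a group and with group means spanning at least 1 log2 unit, were TESC, BHLHE41, IGF2, CSAG4 and CAMK2N1 (Pearson r from 0.993 to 0.997). TESC encodes the calcium-binding protein tescalcin, and its group means were 9.62 in control, 9.59 in WT and 9.75 in MM against 8.08 with PIM1 alone, 7.84 with PIM1 + WT and 8.08 with PIM1 + MM. No probe came near A_24_P258846 in the same way: the closest were CAPN10 at 0.659 and GLT8D2 at 0.599. These correlations describe samples that share arrays and the same split by stable PIM1.

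With stable PIM1, the factors NFATC2, NFATC4 and NFAT5 were lower together with the PIM1-associated NFATC1 probe, while NFATC3 was not called. Within a dye, 6 of the 14 member probes were called, 5 lower and 1 higher, where 33.9% of all probes were called, 17.6% as lower and 16.3% as higher. The probes NFATC1 A_23_P300150, NFATC2 A_23_P91278, NFATC4 and NFAT5 had all 6 samples with stable PIM1 below all 6 without, 4 of 14 probes beside a background of 8.19%, and no member had them all above (background 6.57%). The same 4 were called lower in Cy3 and again in Cy5, beside 6.59% of all probes, and no member was called higher in both (background 6.42%). That 1 NFATC1 probe was lower with stable PIM1 was known when the members were chosen, and without it both counts are 3 of 13. When channels were centred on their medians in place of quantile normalization, NFATC1 A_23_P300150 (-1.14, adjusted p = 0.0004222) and NFATC2 A_23_P91278 (-0.57, adjusted p = 0.01721) kept their within-dye calls, while NFATC4 (adjusted p = 0.1966) and NFAT5 (-0.67, adjusted p = 0.07833) lost theirs. The median difference within a dye was -0.11 over the 14 member probes and -6e-04 over all probes tested. Probes for stable reference genes also differed within a dye, with TBP at -0.29 (adjusted p = 0.0027) GAPDH at 0.33 (adjusted p = 0.001056) and the ACTB probes at 0.47 (adjusted p = 2.896e-05) and 0.11 (adjusted p = 0.1165).

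NFATC2, a calcineurin-regulated factor best known from activated T cells, was measured by A_23_P91278 at 7.71 and 7.65 in control, 7.68 and 7.61 in WT and 7.68 and 7.62 in MM. It was at 6.92 and 6.92 with PIM1 alone, where only 1 of 2 samples was well above background, at 7.04 and 7.03 in PIM1 + WT and at 7.21 and 7.02 in PIM1 + MM. The samples with and without stable PIM1 did not overlap. The within-dye difference was -0.57 ± 0.0513 (1.49-fold lower, adjusted p = 3.408e-05), and PIM1 minus control was -0.76 ± 0.0725 (adjusted p = 9.281e-05). The other NFATC2 probe, A_33_P3215333, stayed between 6.54 and 6.78 in all samples and was not called (-0.06 within a dye, adjusted p = 0.5149), so that the NFATC2 probes disagreed.

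NFATC4, another calcineurin-regulated factor, was dim throughout. Its probe was at 6.92 and 6.73 in control, 6.83 and 6.86 in WT and 6.80 and 6.94 in MM, and at 6.28 and 6.29 with PIM1 alone, 6.29 and 6.40 with PIM1 + WT and 6.18 and 6.26 with PIM1 + MM. None of the 6 samples with stable PIM1 was well above background, so that only bounds could be given. NFATC4 was at least 1.38-fold lower in PIM1 + WT than in WT (adjusted p = 0.001741) and at least 1.29-fold lower in PIM1 + MM than in MM (adjusted p = 0.0007353). Across dyes, it was at least 1.23-fold lower in PIM1 than in control (adjusted p = 0.001251). Under median centring each of these calls was lost (adjusted p = 0.3527, 0.9895 and 0.8838, in this order), and PIM1 minus control was -0.04. The bounds were not computed under median centring.

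NFAT5, the osmotic stress factor, was at 12.18 and 11.94 in control, 11.87 and 11.86 in WT and 11.89 and 11.92 in MM. It was at 11.76 and 11.68 with PIM1 alone, 11.33 and 11.39 with PIM1 + WT and 11.43 and 11.60 with PIM1 + MM. The groups did not overlap, but the gap was narrow, with 11.76 as the highest sample with stable PIM1 and 11.86 as the lowest without. The within-dye difference was -0.45 ± 0.0629 (adjusted p = 0.0005008). PIM1 minus control was -0.34 (adjusted p = 0.0203), a call lost without control replicate 1 (-0.22, adjusted p = 0.141) and without PIM1 replicate 2 (adjusted p = 0.0957).

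NFATC3, a broadly expressed calcineurin-regulated factor, lay between 7.02 and 7.29 in control, WT, MM and PIM1. It was at 7.33 and 7.08 in PIM1 + WT and at 7.005 and 6.635 in PIM1 + MM, and the last of these was not well above background. The within-dye difference was -0.16 ± 0.0843 (adjusted p = 0.1726). The spot lay in row 22 of 532 on the array, and in the first 33 rows probes of PIM1 + MM replicate 2 read lower than those of replicate 1 by a median of 0.16 (median difference -0.16), against 0.02 in the opposite direction elsewhere. Without those rows of that sample the within-dye difference was -0.07 (adjusted p = 0.481), and without PIM1 + MM replicate 2 also -0.07. Without PIM1 + MM replicate 1, which leaves the low sample alone in its group, it was -0.26 and called (adjusted p = 0.01974).

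**Figure D2:**
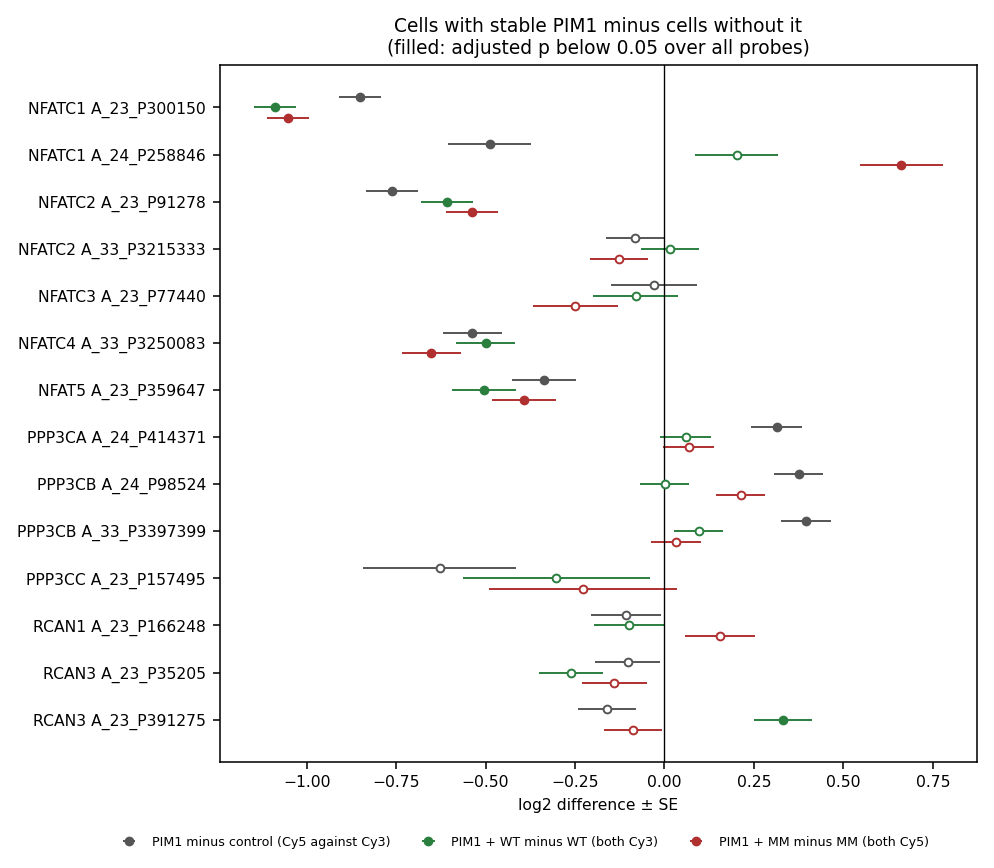
Log2 differences of the 14 member probes with stable PIM1, with bars of 1 standard error and filled points where called, for PIM1 minus control (across dyes), PIM1 + WT minus WT and PIM1 + MM minus MM (each within a dye), with probes not well above background drawn at their fitted values. NFATC1 A_23_P300150, NFATC2 A_23_P91278, NFATC4 and NFAT5 lie below 0 and are called in each comparison, while PPP3CA and both PPP3CB probes are called only across dyes.

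In the comparison of the PIM1 and control groups across dyes, 8 of the 14 member probes were called, 3 higher and 5 lower, against 26.1% of all probes, 13.1% as higher and 13.0% as lower. The 5 lower calls were the 4 probes above and NFATC1 A_24_P258846, which was at least 1.25-fold lower (adjusted p = 0.0123). This last call was lost under 5 alternatives, and within a dye the same probe was higher with stable PIM1 (0.43 ± 0.0821, adjusted p = 0.002885), there in transfected cells. The 3 higher calls were catalytic subunits of calcineurin. In PIM1 + WT minus WT, 5 members were called (background 27.5%), 4 lower (background 14.4%) and 1 higher (background 13.1%). In PIM1 + MM minus MM also 5 were called (background 19.2%), 4 lower (background 9.45%) and 1 higher (background 9.72%).

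No catalytic subunit of calcineurin was called with stable PIM1 once dyes were matched. The matched comparisons hold only NFATC1-transfected cells, while the calls across dyes came from cells without an NFATC1 vector. Matching the dye therefore also changed the cells compared. PPP3CA, the alpha subunit, was at 9.90 and 9.97 in control and 10.29 and 10.21 in PIM1, a difference of 0.31 (adjusted p = 0.009619). It was at 9.94 and 9.98 in WT, 10.31 and 10.27 in MM, 10.03 and 10.01 in PIM1 + WT and 10.27 and 10.44 in PIM1 + MM. All 6 Cy5 samples were above all 6 Cy3 samples, whichever vectors the cells carried. On every one of the 6 arrays the Cy5 channel was higher, by 0.33 on average (0.24 to 0.43), which 8.53% of all probes also showed. The within-dye difference of PPP3CA was 0.06 (adjusted p = 0.3862).

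PPP3CB, the beta subunit, was measured by A_24_P98524 and A_33_P3397399. The former was at 11.62 and 11.66 in control and 11.93 and 12.10 in PIM1 (0.37, adjusted p = 0.003224), and the latter at 9.67 and 9.57 against 10.04 and 9.98 (0.40, adjusted p = 0.002567). A_24_P98524 was higher in Cy5 on 6 of 6 arrays, by 0.29 on average (0.10 to 0.44). A_33_P3397399 was higher in Cy5 on 4 of 6 arrays and in Cy3 on 2, with a mean of 0.15 (-0.07 to 0.42). Within a dye the probes differed by 0.11 (adjusted p = 0.1262) and 0.06 (adjusted p = 0.3704). In PIM1 + MM minus MM alone, A_24_P98524 differed by 0.21 (adjusted p = 0.05946), not called here but called in 5 alternatives. Under median centring, where the median of all probes in this comparison was 0.10, the PIM1 minus control differences of PPP3CA and of both PPP3CB probes changed sign.

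PPP3CC, the gamma subunit, was at 9.35 and 9.16 in control and 8.66 and 8.59 in PIM1 (-0.63 ± 0.214, adjusted p = 0.07291). The spots of WT replicate 2 and MM replicate 2 were outlier-flagged by the scanner software and dropped, which left 8.99 for WT and 8.57 for MM (n = 1 each). PIM1 + WT was at 8.72 and 8.66, and PIM1 + MM at 8.72 and 7.97. The low last value came from row 20 of the array, in the region named above for PIM1 + MM replicate 2. No PPP3CC comparison was called, although PIM1 minus control was in 8 alternatives. The within-dye difference was -0.26 ± 0.185 (adjusted p = 0.3335) and ranged from -0.51 to -0.08 over the alternatives, with -0.08 without those rows (adjusted p = 0.535). Without PIM1 + MM replicate 1, which leaves the low sample alone, PPP3CC was called within a dye (-0.45, adjusted p = 0.00593), in PIM1 + MM minus MM (-0.60, adjusted p = 0.01936) and in PIM1 + WT minus PIM1 + MM (0.72, adjusted p = 0.006856).

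Promoter windows, each 300 bases long and ending shortly after a transcript start, were searched for the NFAT core GGAAA on both strands (TTTCC on the other strand). The RefSeq table used here held windows for NFATC1, NFATC2, NFATC3, NFATC4, RCAN1 and RCAN3. Of all 35116 windows in it, 61.2% held the motif at least once, 9.9% at least 3 times and 0.7% at least 5 times. RCAN1 had 6 windows, of which 1 held 5 matches and the others 1 or 0. The richest is shown as a window of the feedback gene, and the share of 0.7% is per window, not per gene with 6 windows. Which window serves the transcript read by the RCAN1 probe was not analysed. NFATC2 had a window with 3 matches and one with none, and the former is shown as a window of a member that was lower with stable PIM1. Both NFATC1 windows held 1 match, the NFATC3 window held none, 1 of the 3 NFATC4 windows held 1 and the others none, and the 3 RCAN3 windows held 1 each. Both windows below lie on the minus strand of GRCh38.p14 and run 5′ to 3′ along the transcript, and capitals mark the matches, which describe letters and not bound sites.
RCAN1 chr21:34526773-34527072: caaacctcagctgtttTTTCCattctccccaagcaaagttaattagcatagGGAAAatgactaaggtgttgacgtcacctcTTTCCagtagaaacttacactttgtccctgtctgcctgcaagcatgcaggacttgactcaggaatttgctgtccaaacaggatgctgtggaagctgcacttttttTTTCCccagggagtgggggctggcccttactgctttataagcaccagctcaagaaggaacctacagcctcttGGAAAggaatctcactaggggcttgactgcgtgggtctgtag
NFATC2 chr20:51562790-51563089: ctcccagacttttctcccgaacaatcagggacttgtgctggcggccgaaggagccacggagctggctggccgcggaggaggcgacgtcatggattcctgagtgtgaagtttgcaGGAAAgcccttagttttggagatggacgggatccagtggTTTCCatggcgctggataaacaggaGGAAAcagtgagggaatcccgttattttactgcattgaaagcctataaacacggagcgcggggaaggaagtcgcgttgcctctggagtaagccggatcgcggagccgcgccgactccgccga

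The calcipressins showed no common direction with stable PIM1. RCAN1, the best-known feedback inhibitor of calcineurin, was at 10.48 and 10.36 in control, 10.33 and 10.28 in WT and 10.41 and 10.50 in MM. It was at 10.45 and 10.17 with PIM1 alone, 10.27 and 10.15 with PIM1 + WT and 10.56 and 10.67 with PIM1 + MM. Samples with and without stable PIM1 overlapped, and the highest and the lowest value both came from PIM1 cells. The within-dye difference was 0.03 ± 0.0691 (adjusted p = 0.8061), made of -0.10 in Cy3 and 0.16 in Cy5.

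RCAN3, a relative of RCAN1 that also binds calcineurin, was measured by a pair of probes that disagreed. A_23_P35205 was at 8.95 and 8.76 in control, 8.80 and 8.83 in WT, 8.98 and 8.80 in MM, 8.84 and 8.67 with PIM1 alone, 8.56 and 8.55 with PIM1 + WT and 8.72 and 8.78 with PIM1 + MM. Its within-dye difference was -0.20 ± 0.0640 (adjusted p = 0.0373), a call lost under 10 alternatives. A_23_P391275 was at 8.30 and 8.18 in control, 7.97 and 7.97 in WT, 8.23 and 8.32 in MM, 8.19 and 7.97 with PIM1 alone, 8.32 and 8.29 with PIM1 + WT and 8.22 and 8.15 with PIM1 + MM. It was higher in PIM1 + WT than in WT cells (0.33 ± 0.0811, adjusted p = 0.01331), where the WT samples were among the lowest of all, and this call was lost without either replicate of either group (adjusted p from 0.0575 to 0.0791). Within a dye it differed by 0.12 (adjusted p = 0.1382).

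**Figure D3:**
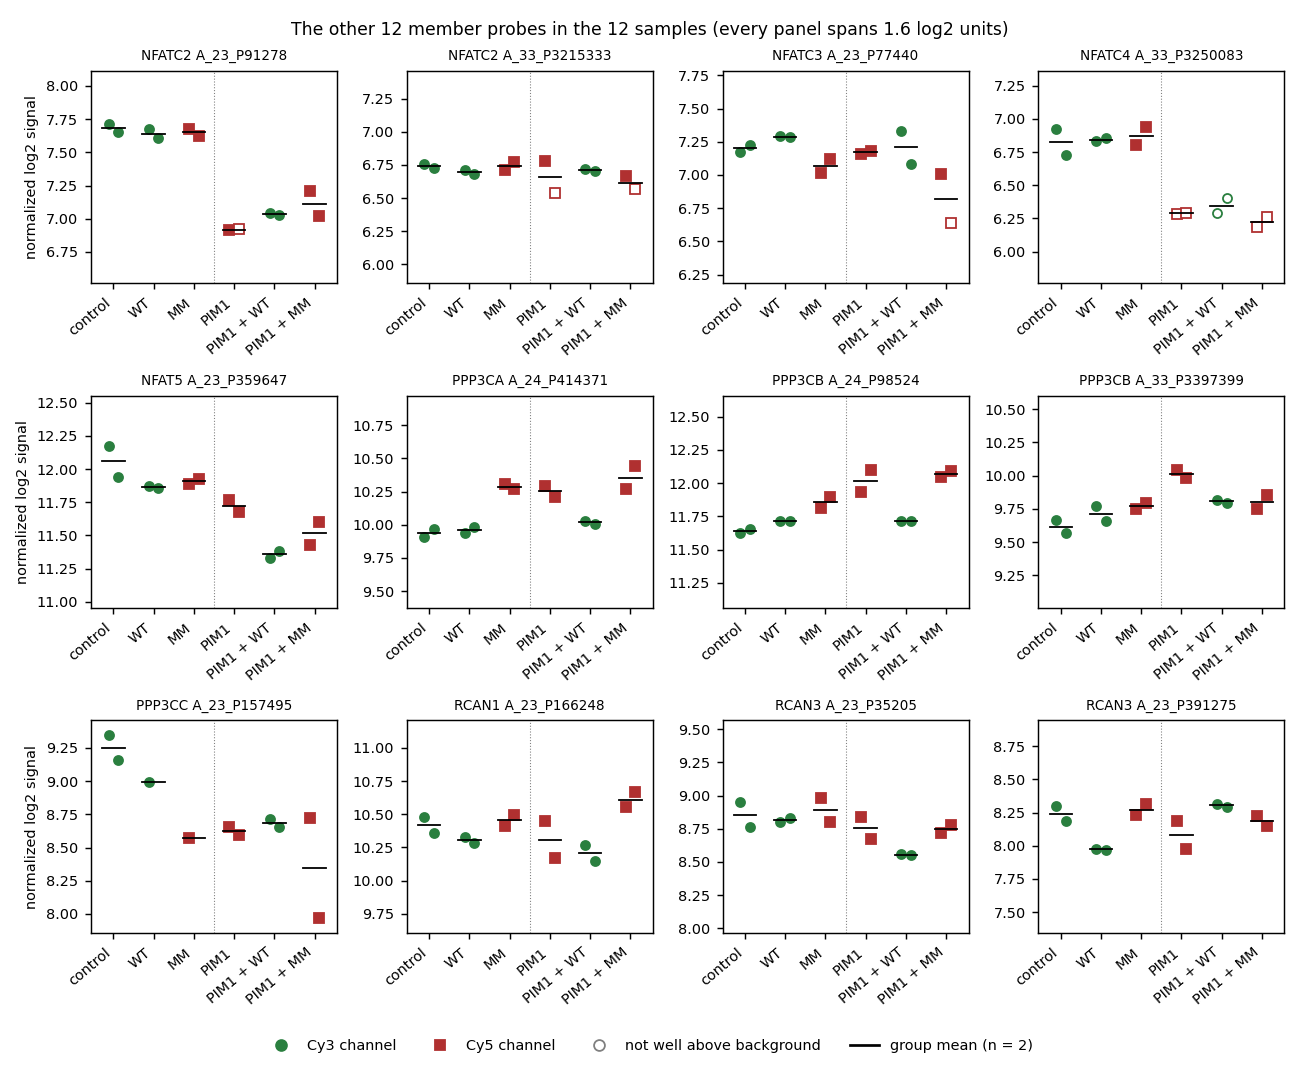
Normalized log2 intensity of the remaining member probes in each of the 12 samples, by group, with green circles for Cy3, red squares for Cy5, open symbols where a spot was not well above background and lines for group means (n = 2, or 1 for PPP3CC in WT and MM). NFATC2 A_23_P91278, NFATC4 and NFAT5 are lower in the 6 samples with stable PIM1, while PPP3CA separates by dye.

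The NFATC1 form was compared next, as WT against MM in control cells and again in PIM1 cells, to see how the family and its feedback genes responded to NFATC1 without the mutated residues. In control cells no member was called apart from NFATC1 A_24_P258846, the probe that rose with transfection. In PIM1 cells RCAN1, PPP3CA and a PPP3CB probe were lower with WT than with MM, and each of these calls depended on single samples or on the normalization. No member was called in the interaction, which compares the WT minus MM difference between PIM1 and control cells.

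In WT minus MM, 1 of 14 member probes was called, against 1.01% of all probes (0.316% as lower). It was NFATC1 A_24_P258846, and 3 member probes had an unadjusted p below 0.05. That A_24_P258846 reads the transfected form was known when the members were chosen, so that its call is no new result. PPP3CA differed by -0.33 (adjusted p = 0.07388) and RCAN3 A_23_P391275 by -0.30 (adjusted p = 0.1415). NFATC3 was at 0.22 (adjusted p = 0.5398), RCAN1 at -0.15 (adjusted p = 0.6545) and NFATC1 A_23_P300150 at -0.12 (adjusted p = 0.4831).

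In PIM1 + WT minus PIM1 + MM, 4 of 14 member probes were called, all lower, against 16.9% of all probes (8.14% as lower). Besides NFATC1 A_24_P258846, whose response was again known beforehand, these were PPP3CB A_24_P98524 (-0.35 ± 0.0687, adjusted p = 0.008178), PPP3CA (-0.34 ± 0.0710, adjusted p = 0.01157) and RCAN1. RCAN1 differed by -0.29 on slide 1 and by -0.52 on slide 2, with all PIM1 + WT samples below all PIM1 + MM samples. Its call was lost without PIM1 + WT replicate 1 (adjusted p = 0.0649), PIM1 + WT replicate 2 (adjusted p = 0.14) or PIM1 + MM replicate 2 (adjusted p = 0.119), and it was -0.08 under median centring (adjusted p = 0.888). The PPP3CA call was lost without the same samples, and the PPP3CB call without either PIM1 + WT sample. For PPP3CA and PPP3CB A_24_P98524 the Cy5 group was the higher one here too. NFATC3 was higher with WT by 0.39 ± 0.119 (adjusted p = 0.05396, called in 8 alternatives, and 0.20 without the low rows of PIM1 + MM replicate 2) and was the reverse case, with the Cy3 channel higher on 6 of 6 arrays, as for 5.10% of all probes.

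In the interaction 0 of 14 member probes were called by limma, against 2.57% of all probes, and 2 had an unadjusted p below 0.05. With loess normalization, or with the array as a random or a fixed block, 1 was called. The largest among the members apart from NFATC1 A_24_P258846 was RCAN3 A_23_P391275, at 0.42 ± 0.115 (adjusted p = 0.09686), made of -0.30 in control cells and 0.12 in PIM1 cells, and it was called in 7 alternatives. RCAN1 was at -0.25 (adjusted p = 0.416), PPP3CB A_24_P98524 at -0.21 (adjusted p = 0.3201) and PPP3CA at -0.01 (adjusted p = 0.9875).

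Adding an NFATC1 form was also compared within a dye. WT minus control gave 1 call among the members (background 0.189%, higher 0.0631%) and PIM1 + MM minus PIM1 also 1 (background 13.4%, higher 5.64%), in each case NFATC1 A_24_P258846. That this probe reads the transfected form was known beforehand. RCAN1 differed by -0.11 between WT and control (adjusted p = 0.7653) and by 0.30 between PIM1 + MM and PIM1 (adjusted p = 0.0752), where the gain was 0.11 on slide 1 and 0.49 on slide 2. NFATC2 A_23_P91278 differed by 0.19 between PIM1 + MM and PIM1 (adjusted p = 0.1132), and NFATC3 by -0.35 (adjusted p = 0.08503).

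**Figure D4:**
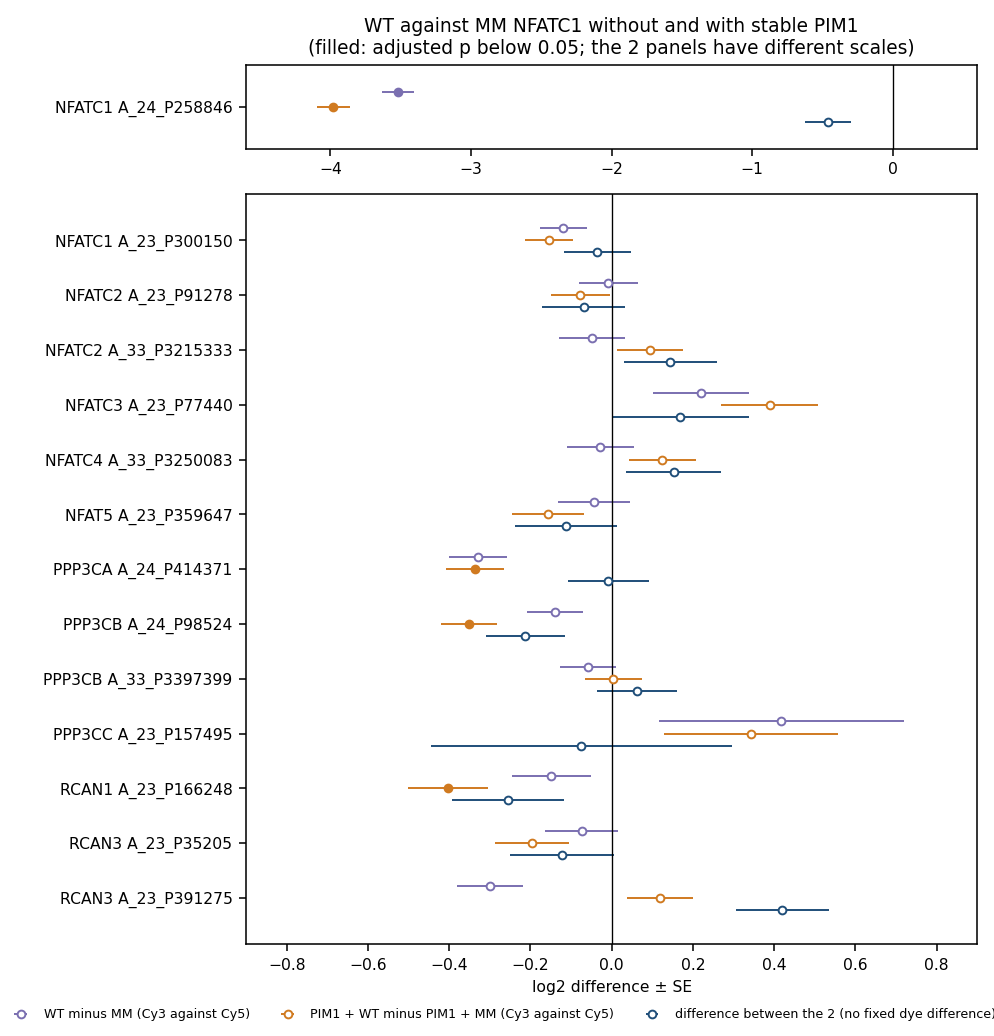
Log2 differences of the member probes between WT and MM, with bars of 1 standard error and filled points where called, in control cells, in PIM1 cells and as the difference between the 2; NFATC1 A_24_P258846 has a panel with its own scale. Apart from that probe only PPP3CA, PPP3CB A_24_P98524 and RCAN1 are called, in PIM1 cells, and no difference between the contrasts is.

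The genes around NFAT and calcineurin were followed in 5 lists, each gene by its brightest probe. Of the genes named below, MAPK8, ATP2B4 and OSCAR have further probes on the arrays, whose values are not given here. With stable PIM1 within a dye, the calcineurin partners and inhibitors gave 1 higher, 5 lower and 13 not called of 19, with a median difference of -0.09. The NFAT kinases gave 3 higher, 4 lower and 8 not called of 15 tested (median -0.01), and the genes of store-operated calcium entry 2 higher, 5 lower and 8 not called of 15 (median -0.04). NFAT target genes gave 3 higher, 5 lower and 13 not called of 21 tested (median -0.03), and the osmotic target genes of NFAT5 gave 3 higher, 2 lower and 5 not called of 10 (median 0.06). Every list held calls in both directions, and 33.9% of all probes were called in this comparison.

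Among the calcineurin partners the lowest was PPP3R1, the regulatory B subunit of calcineurin. Its probe A_24_P388252 was at 8.67 and 8.54 in control, 7.92 and 7.97 in WT and 8.65 and 8.75 in MM, and at 7.38 and 7.44 with PIM1 alone, 7.17 and 7.19 with PIM1 + WT and 7.69 and 7.82 with PIM1 + MM. All samples with stable PIM1 were below all without it, and the WT samples were below the control and MM samples. PPP3R1 fell by 0.86 within a dye (adjusted p = 3.662e-06), was lower in WT than in control (-0.66, adjusted p = 0.01699), and was lower with WT than with MM in control cells (-0.75, adjusted p = 0.006517) and in PIM1 cells (-0.57, adjusted p = 0.0009696). The other PPP3R1 probe differed by -0.23 within a dye (adjusted p = 0.01378) and was not called between WT and control (-0.07, adjusted p = 0.8334) or WT and MM (-0.23, adjusted p = 0.2793).

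CALM3, 1 of the calmodulin genes, rose with stable PIM1 by 0.46 within a dye (adjusted p = 2.659e-05). Its probe A_23_P4944 was at 11.35 and 11.38 in control, 11.46 and 11.46 in WT and 11.28 and 11.21 in MM, and at 11.91 and 11.92 with PIM1 alone, 12.26 and 12.23 with PIM1 + WT and 11.36 and 11.41 with PIM1 + MM. In PIM1 cells it was thus high with WT and at the level of control cells with MM. The interaction was called (0.64, adjusted p = 0.008505), though not under median centring. The other CALM3 probe differed by 0.02 within a dye (adjusted p = 0.9161), and under median centring the PIM1 minus control difference of A_23_P4944 turned from 0.56 to -0.15. HOMER3, a scaffold protein that competes with calcineurin for NFAT, fell by 0.37 (adjusted p = 0.001069), and its other probe differed by 0.06.

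Of the NFAT kinases, DYRK1B rose by 0.63 within a dye (adjusted p = 0.0001397), while the stress kinase MAPK8 fell by 0.46 (adjusted p = 0.00248). PRKACA, a catalytic subunit of protein kinase A, rose by 0.60 within a dye (adjusted p = 0.003856), mostly with WT. It was at 11.96 and 11.97 in PIM1 + WT against 10.97 and 10.96 in WT. With MM it was at 10.82 and 10.86 in PIM1 cells against 10.60 and 10.67 in control cells. The paper lists PRKACA among its putative PIM1/NFATC1 target genes. In calcium entry, ITPR3, a calcium release channel of the endoplasmic reticulum, rose by 0.58 (adjusted p = 3.836e-05), and the plasma membrane calcium pump ATP2B4 fell by 0.47 (adjusted p = 0.005648). Both calcium channel genes ORAI1 (0.68, adjusted p = 0.003854) and ORAI2 (0.76, adjusted p = 0.000184) were higher with WT than with MM in PIM1 cells. In that comparison, which crosses dyes, 4 of the 15 calcium entry genes were called higher and 0 lower, where 16.9% of all probes were called, 8.77% as higher.

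Of the NFAT target genes, OSCAR, an osteoclast receptor known as an NFATC1 target, rose by 1.06 within a dye (adjusted p = 4.606e-07). It was at 10.89 and 10.80 in control, 10.64 and 10.65 in WT, 10.24 and 10.26 in MM, 10.67 and 10.67 with PIM1 alone, 11.85 and 11.77 with PIM1 + WT and 11.15 and 11.25 with PIM1 + MM. The PIM1 samples without an NFATC1 vector lay below the control samples, in a comparison across dyes that was not called. OSCAR was also the only gene of this list called between WT and MM in control cells (0.39, adjusted p = 0.0263). The matrix protease MMP9 fell by 0.68 (adjusted p = 4.964e-06), from 8.67 to 8.93 without stable PIM1 to 7.88 to 8.12 with it. The cytokine IL6 rose by 0.56 (adjusted p = 6.855e-06), from at most 9.09 without to at least 9.49 with, but its other probe was not called (-0.04, adjusted p = 0.7381).

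Among the osmotic target genes of NFAT5, the kinase SGK1 fell by 1.06 within a dye (adjusted p = 1.232e-06), from 10.19 to 10.48 without stable PIM1 to 9.04 to 9.54 with it, and the inositol carrier SLC5A3 fell by 0.41 (adjusted p = 0.0009279). The calcium-binding protein S100A4 rose by 0.90 (adjusted p = 5.877e-05). NFAT5 itself was lower in the same samples, while calls among its target genes went in both directions.

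**Figure D5:**
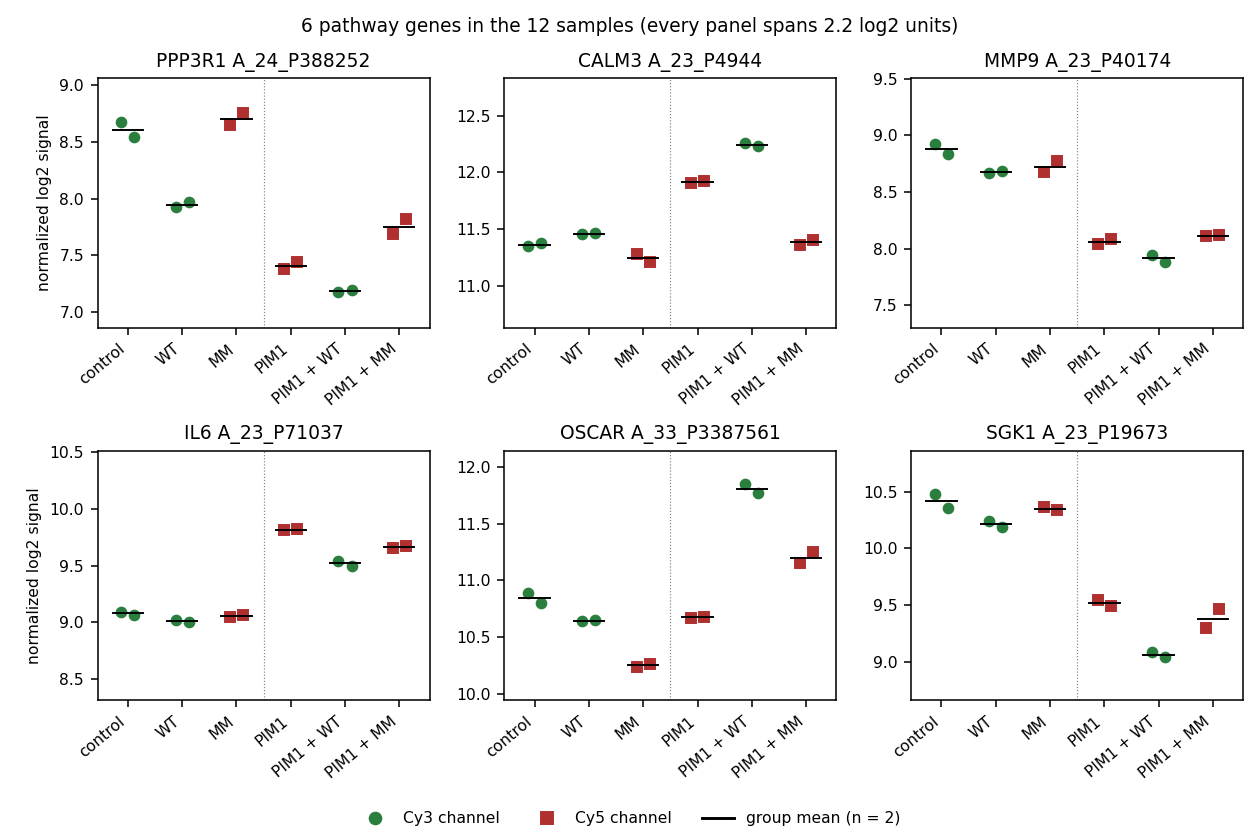
Normalized log2 intensity of PPP3R1, CALM3, MMP9, IL6, OSCAR and SGK1 in each of the 12 samples, by group, with green circles for Cy3, red squares for Cy5 and lines for group means (n = 2). PPP3R1, MMP9 and SGK1 are lower and IL6 higher in the 6 samples with stable PIM1, while CALM3 and OSCAR are highest in PIM1 + WT.

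Markers of other cell types did not all stay level across the groups. The summed intensity of the immune markers was highest in PIM1 + WT, at 2332 to 2437 against 1600 to 2049 elsewhere, while the defining markers CD3E and MS4A1 were well above background in 3 and 1 of 12 samples and CD68, CD14 and PTPRC in 12. The summed fibroblast and endothelial markers ranged from 988 to 1325, highest in PIM1, and 3 or 4 of these 6 markers were well above background in each sample. COL3A1 and DCN were not well above background in any sample, while COL1A1, PECAM1 and CDH5 were in 12 of 12. PECAM1, an adhesion protein of endothelial and blood cells, was at 7.57 to 7.78 without stable PIM1 and 8.58 to 8.84 with it, and COL1A1 lay between 8.30 and 9.05. PECAM1 rose within a dye by 1.12 (adjusted p = 3.995e-07) and COL1A1 fell by 0.39 (adjusted p = 0.001242). PECAM1 has 3 probes on the arrays, and its values here are for the brightest only. The part of these levels in the differences above was not tested.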

How the data were processed

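RNA of 12 PC-3 samples was measured on Agilent two-colour 44K arrays with Feature Extraction 11.0.1.1, a version read from the header of the scanner output. The submitters' processing notes name limma, without a version. The deposited scanner files hold intensity per spot and channel, without normalization by the authors. The deposited value table holds the authors' log2 values, quantile-normalized with limma per the methods and used here only as an alternative. Raw median intensities were log2-transformed, outlier-flagged spots were dropped, spots of a probe were averaged, and probes above the 90th percentile of negative controls in at least 2 of 12 channels were kept (31674, with 2453 left out). All channels were quantile-normalized together. A mean for each group (6 residual degrees of freedom) was fitted with limma 3.58.1 (R 4.3.3), with Benjamini-Hochberg adjustment over all kept probes. Each sample was read from its own dye channel. The fit was tested on simulated data. Probes not well above background in a group gave only bounds, from values normalized by loess and Aquantile.

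Same-numbered samples shared a slide, and the groups of 1 array also an array. Deviations from group means of same-numbered samples correlated from 0.0506 to 0.836 over 15 pairs of groups, of which 7 exceeded 0.1, and from 0.337 to 0.836 for groups on the same array. The array was among the blocks tried. Named were every member probe, up to 3 called genes of each list and comparison by size of difference, PIM1, TBP, ACTB and GAPDH, and the 5 probes most correlated with each NFATC1 probe. The members and lists were chosen with earlier results of these data known. Arrays give no counts, so that their number limits the precision. Alternatives changed the background correction, signal, normalization, filter, blocks, samples fitted, threshold and left-out replicates. Sequences of promoters came from RefSeq, and primers from the study's supplement.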

Additional observations from a re-analysis of the deposited data

Results flagged for a closer look

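The difference between WT and MM changed with stable PIM1 for CALM3 A_23_P4944 by 0.64 (adjusted p = 0.008505) and for the calcium pump gene ATP2A2 A_24_P141786 by 0.65 (adjusted p = 0.01578), as log2 values of the limma interaction term. For ATP2A2 the difference was -0.09 in control cells and 0.56 in PIM1 cells. Under other background corrections and normalizations the interaction ranged from 0.46 to 0.73 for CALM3 and from 0.53 to 0.75 for ATP2A2. Under median centring 0 of 31674 probes were called in the interaction, so that both calls were lost there. Each gene has 2 probes, and these values are for its brighter probe only.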

How the results depend on the processing

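The counts of member probes called (of 14) moved most with 2 settings. Adding a minimum log2 difference of 1 left 0 of 8 in PIM1 minus control, 1 of 4 in PIM1 + WT minus PIM1 + MM, 0 of 1 in WT minus control, 1 of 5 in PIM1 + WT minus WT, 1 of 5 in PIM1 + MM minus MM and 1 of 6 for stable PIM1 within a dye. Median centring gave, in the same order, 4, 1, 0, 1, 1 and 2, and under it the PIM1 minus control differences of PPP3CA (-0.26), PPP3CB A_24_P98524 (-0.35) and PPP3CB A_33_P3397399 (-0.16) reversed. Fits of only the groups compared gave 5 for PIM1 minus control, 8 for PIM1 + WT minus WT, 1 in place of 0 for the interaction and 0 for WT minus control.

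WT minus MM gave 3 in place of 1 at an unadjusted p below 0.05 and with the array as a random block. The interaction gave 2 at an unadjusted p and 1 with loess, with the array as a random block and with the array as a fixed block. WT minus control gave 2 at an unadjusted p, and 0 with normexp, the processed signal, the median per gene and the filter on all 12 channels. PIM1 + MM minus PIM1 gave 6 at an unadjusted p, 2 with normexp, 4 with the processed signal, 3 with loess and 2 without the first 33 array rows of PIM1 + MM replicate 2. PIM1 + MM minus MM gave 3 with the median per gene. The causes were not tested.

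Leaving out 1 replicate or array gave from 5 (without control replicate 1) to 9 for PIM1 minus control. For PIM1 + WT minus PIM1 + MM it gave from 1 (without either PIM1 + WT replicate) to 6, with 2 without PIM1 + MM replicate 2. It gave from 0 to 2 for the interaction (2 without either PIM1 replicate, 1 without the array of control and PIM1 replicate 1). It gave from 0 to 1 for WT minus control, with 0 without any 1 replicate of control, WT, MM or PIM1 + WT, and from 1 to 3 for PIM1 + MM minus PIM1 (3 without PIM1 + MM replicate 1, 2 without PIM1 replicate 1 or the array named above). For stable PIM1 within a dye it gave from 5 to 7.

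With the slide as a replicate block, which the labels do not give as a pairing, no count moved by over 1.5 times, and 4 single values became called: NFATC3 in PIM1 + WT minus PIM1 + MM (adjusted p = 0.0478), PPP3CB A_24_P98524 in PIM1 + MM minus MM (0.0402), PPP3CC in PIM1 minus control (0.0395) and RCAN3 A_23_P35205 in PIM1 + WT minus WT (0.0415). The block gave 9 for PIM1 minus control and 6 for stable PIM1 within a dye. With the array as a random block, calls were gained by NFATC3 (0.006969) and NFATC1 A_23_P300150 (0.03727) in PIM1 + WT minus PIM1 + MM, PPP3CA (0.0173) and RCAN3 A_23_P391275 (0.02349) in WT minus MM, RCAN3 A_23_P391275 in the interaction (0.01628) and PPP3CC in PIM1 minus control (0.02304), and RCAN3 A_23_P35205 lost its within-dye call (0.08056), all as adjusted p. As a fixed block the array gave NFATC3 0.003898 and the RCAN3 interaction 0.03353. Over all alternatives and single probes, 72 values lost a call, 65 gained one and 3 reversed. Another 62, without a call in either fit, changed sign by at least the probe's standard deviation between replicates. The remaining 2973 kept their direction and their call or lack of one, or changed sign without a call by less than that standard deviation. NFATC4, NFATC3 and NFATC2 A_33_P3215333 lie near background, where small differences cannot be resolved.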
